A study of Bos taurus with 16 samples.

Results

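Collagen genes of the rumen papilla stroma were described over all of their exon rows. Of 10 chains looked for (COL1A1, COL1A2, COL3A1, COL5A1, COL5A2, COL6A1, COL6A2, COL6A3, COL4A1 and COL4A2), 6 were matched by symbol among the 12024 genes with exon rows of their own: COL1A1, COL1A2, COL3A1, COL6A1, COL6A2 and COL4A1. These 6 genes held 253 of 113057 such rows. An exon row is 1 region of read coverage labelled with an exon number of 1 gene. COL5A1, COL5A2, COL6A3 and COL4A2 were not analysed here.

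Collagens are trimers of long chains that are folded in the endoplasmic reticulum, secreted, trimmed and cross-linked outside the cell. Types I and III form the banded fibrils that give the core of a papilla its tensile strength, and they are made mostly by fibroblasts. Type VI forms beaded microfilaments around cells, and type IV forms the network of basement membranes under epithelium and around vessels and muscle cells.

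RNA came from papillae clipped from the rumen wall of 16 crossbred steers aged 344 ± 48 days, with 1 library per animal. The animals received no treatment and were sorted by body weight gain and dry matter intake into 4 groups of 4 animals, one for each pairing of high or low gain with high or low intake. All groups were fed freely on the same ration of 57.35% dry-rolled corn, 30% distillers grains, 8% alfalfa hay, 0.4% urea and a commercial supplement. Groups therefore differ by how animals grew and ate and by nothing that was applied to them. Replicate numbers follow the order of deposition and do not pair animals.

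Libraries were estimated to hold 11.85 to 21.25 M reads of 50 bases. First-exon coverage was indexed within each library as the median over 395 genes of log2 of the first exon over the same gene's other exons. This index lay between -0.294 and 0.495 in 11 libraries and between -2.462 and -1.003 in the other 5. Those 5 were replicates 2, 3 and 4 of the high-gain, low-intake group, replicate 4 of the high-gain, high-intake group and replicate 3 of the low-gain, low-intake group. They are called below the 5 libraries low in first exons. They had 14.71 to 21.25 M estimated reads, against 11.85 to 20.85 M in the other 11, and mitochondrial transcripts took 11.62% to 28.03% of their coverage, against 8.75% to 25.04%. High gain holds 4 of the 5, and high gain with low intake keeps 1 library without them, so that group and this coverage difference can hardly be told apart. Keratinocyte genes that define the epithelium of this tissue were covered in every library, with KRT5 at 48.6 to 356 and DSP at 41.1 to 116. KRT14 ran from 4.06 to 639 and KRT17 from 4.1 to 870, and KRT10 was weakly covered, at 0.342 to 0.656. Of the 13 keratinocyte genes followed, only KRT4 was at 0 anywhere, in 2 libraries. Papillae are a mixture of cells, so fewer cells of a type and less RNA per cell cannot be told apart in any value below.

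The loci on the bovine assembly UMD3.1, as the deposited table places them, were chromosome 19 from 37088252 to 37106186 for COL1A1 (51 exon rows), chromosome 4 from 11624354 to 11661578 for COL1A2 (49 rows), and chromosome 2 from 7317262 to 7356996 for COL3A1 (49 rows). COL6A1 spans 147404442 to 147423643 (30 rows) and COL6A2 147542760 to 147570833 (25 rows) on chromosome 1, and COL4A1 lies on chromosome 12 from 88875856 to 89009421 (49 rows). A gene's level was the mean coverage per base over all of its exon rows together, so levels of different genes can be compared per length. COL3A1 was the most covered chain, with a median of 18.95 over the 16 libraries, followed by COL1A2 at 13.55 and COL1A1 at 9.11. COL6A1 (3.81), COL4A1 (2.22) and COL6A2 (1.58) were lower. COL3A1 exceeded COL1A2 in 16 of 16 libraries and COL1A1 exceeded COL6A1 in 16 of 16. COL1A2 exceeded COL1A1 in 13 of 16, COL4A1 exceeded COL6A2 in 14, and COL6A1 exceeded COL4A1 in the 11 libraries that are not low in first exons, so the places of those neighbours differed between animals.

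Coverage along the genes differed between those 5 libraries and the rest, also within groups. The last exon of COL1A1, exon 51 with 1593 bases, held 79.7% to 97.0% of that gene's covered bases in the 5 libraries low in first exons and 33.6% to 54.8% in the other 11. In the 5, 34 to 46 of the 51 COL1A1 rows were listed at 0, against 1 to 10 in the 11. COL4A1 showed the same separation, with 82.8% to 98.5% of its bases in the last exon against 39.7% to 61.1%. In COL6A1 and in COL1A2 the ranges overlapped slightly: 78.9% to 96.2% against 63.2% to 80.7% for COL6A1, and 69.6% to 84.5% against 44.6% to 70.5% for COL1A2. COL3A1 overlapped more, with 69.0% to 82.1% against 49.9% to 74.5%. Many exons of these genes are shorter than 100 bases and hold few reads, but longer rows were also at 0: in COL1A1, 10 to 18 rows of 100 bases or more were at 0 in the 5 libraries, against 0 to 2 in the 11.

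**Figure D1:**
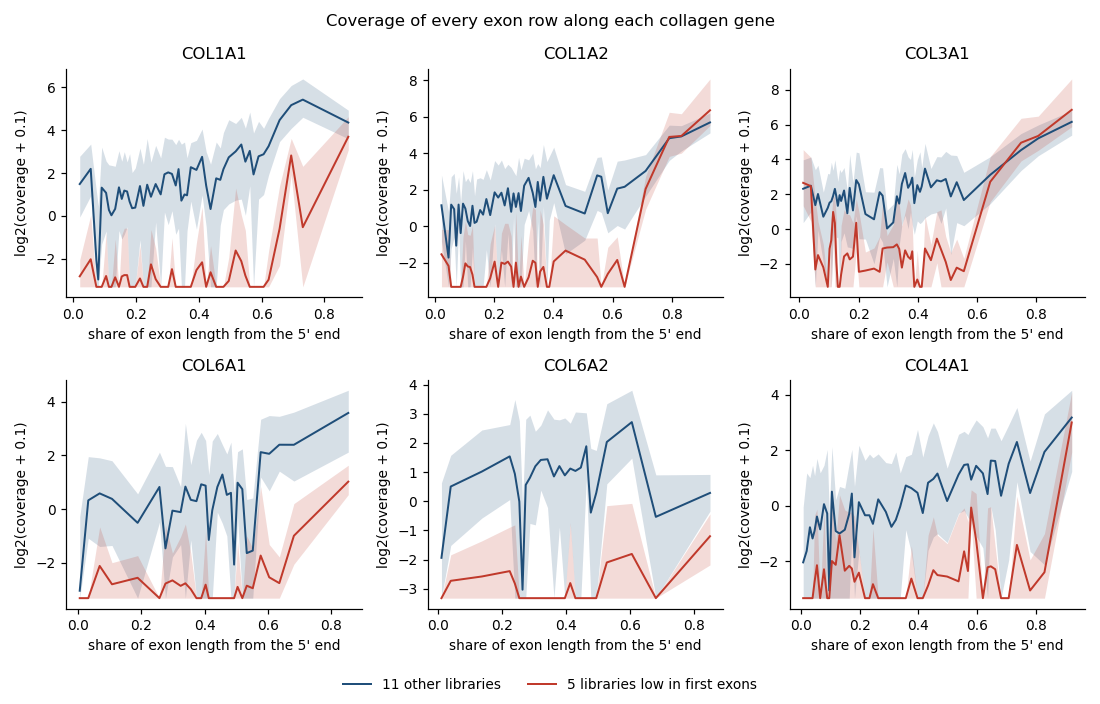
Coverage of all exon rows of each collagen gene, as log2(coverage + 0.1), against the share of exon length counted from the 5′ end. Lines are means and bands the lowest to highest library, in blue for the 11 other libraries and in red for the 5 libraries low in first exons. The red line lies under the blue one over most of each gene and meets it towards the 3′ end of COL1A2, COL3A1 and COL4A1, while in COL6A1 and COL6A2 it stays lower to the last exon.

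Type I collagen is built from α1 chains (COL1A1) and α2 chains (COL1A2). COL1A1 levels of high-gain animals were 7.79, 8.7, 11.4 and 2.22 at high intake and 9.51, 3.64, 2.81 and 4.15 at low intake, in replicate order. Low-gain animals had 10.7, 15.1, 16.5 and 5.8 at high intake and 22.5, 17.1, 6.32 and 15.4 at low intake. The lowest 4 of the 16 libraries were all high gain and all low in first exons, and the high-gain and low-gain ranges overlapped between 5.8 and 11.4. Group means in the same order were 7.54 ± 3.87, 5.03 ± 3.04, 12 ± 4.84 and 15.3 ± 6.74 (SD, n = 4). The best covered row of the gene, exon 50 (chromosome 19, 37104264 to 37104538, 275 bases), was listed at 0, 0.1, 2.84, 4.87 and 0.44 in the 5 libraries low in first exons and at 24.28 to 84.3 in the other 11. Exon 51, the next and last one, stood at 8.39 to 24.75 in the 5 and at 12.05 to 30.56 in the 11, so neighbouring exons of 1 gene gave very different pictures of the same animals.

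COL1A2 stood at 9.63, 8.23, 13.8 and 9.4 in high-gain animals of high intake and at 13.3, 17.9, 10.4 and 9.31 in those of low intake. In low-gain animals it stood at 11.6, 14.1, 17.3 and 7.31 with high intake and at 20.1, 19.4, 45 and 16.2 with low intake. The first 3 of these groups overlapped widely, and low-gain animals of low intake lay above most others. The mean of that group was 25.2 ± 13.3, against 10.3 ± 2.44, 12.7 ± 3.84 and 12.6 ± 4.23 (SD, n = 4) in the other groups. The highest value, 45, belongs to replicate 3, where exon 52 alone reached 270.95 against 34.73 to 96.66 in the other 15 libraries.

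COL3A1 encodes the single chain of type III collagen, which forms mixed fibrils with type I. High-gain animals had 13.6, 11, 17 and 15.6 at high intake and 23.3, 31.1, 17.4 and 13.8 at low intake. Low-gain animals had 17, 20.5, 29.1 and 10.3 at high intake and 33.8, 27.8, 77.5 and 23.1 at low intake. The lowest and the highest group were those of COL1A2, with means of 14.3 ± 2.61 for high gain at high intake and 40.6 ± 25 for low gain at low intake (SD, n = 4). Replicate 3 of the latter was again the highest of all, with 392.49 in exon 50 against 41.88 to 141.48 elsewhere. The first exon of COL3A1 was an exception to the loss of 5′ coverage, at 2.43 to 23.46 in the 5 libraries low in first exons and 1.19 to 15.58 in the 11.

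Type VI collagen contains the chains of COL6A1 and COL6A2. At high intake, COL6A1 stood at 3.79, 4, 1.97 and 0.417 in high-gain animals and at 5.56, 5.39, 5.7 and 3.84 in low-gain animals. At low intake it stood at 3.11, 0.476, 0.749 and 1.02 with high gain and at 8.81, 9.08, 0.651 and 7.83 with low gain. The 5 libraries low in first exons were the lowest 5 of 16, at 0.417 to 1.02, and no other library was under 1.97. COL6A2 at high intake stood at 1.63, 1.62, 1.13 and 0.0606 with high gain and at 2.32, 2.91, 2.67 and 1.32 with low gain. At low intake it was 1.55, 0.0565, 0.315 and 0.355 with high gain and 5.14, 4.79, 0.141 and 4.32 with low gain. The same 5 libraries were again lowest. The fewest estimated reads on COL6A2, about 6 over the whole gene, were in high gain with high intake replicate 4, a library of 15.06 M estimated reads. Among the remaining 11 libraries, high gain ran from 1.97 to 4 for COL6A1 and low gain from 3.84 to 9.08. The 3 highest libraries for both genes were low-gain animals of low intake.

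COL4A1 encodes a chain of the type IV collagen found in basement membranes throughout the body. It stood at 2.34, 2.11, 0.69 and 0.592 in high-gain animals of high intake and at 2.08, 1.75, 1.06 and 1.41 in those of low intake. Among low-gain animals it stood at 3.28, 2.66, 4.58 and 1.83 with high intake and at 5.4, 4.83, 2.68 and 6.01 with low intake. High-gain libraries ranged from 0.592 to 2.34 and low-gain libraries from 1.83 to 6.01, and 1 low-gain library lay inside the high-gain range. Means were 1.43 ± 0.921 and 3.09 ± 1.16 at high intake, and 1.58 ± 0.44 and 4.73 ± 1.45 at low intake, for high and low gain respectively (SD, n = 4). Replicate 3 of high gain with high intake, which is not among the 5, was the second lowest of all 16 at 0.69, whereas its COL1A1 level of 11.4 was the highest of the high-gain libraries.

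**Figure D2:**
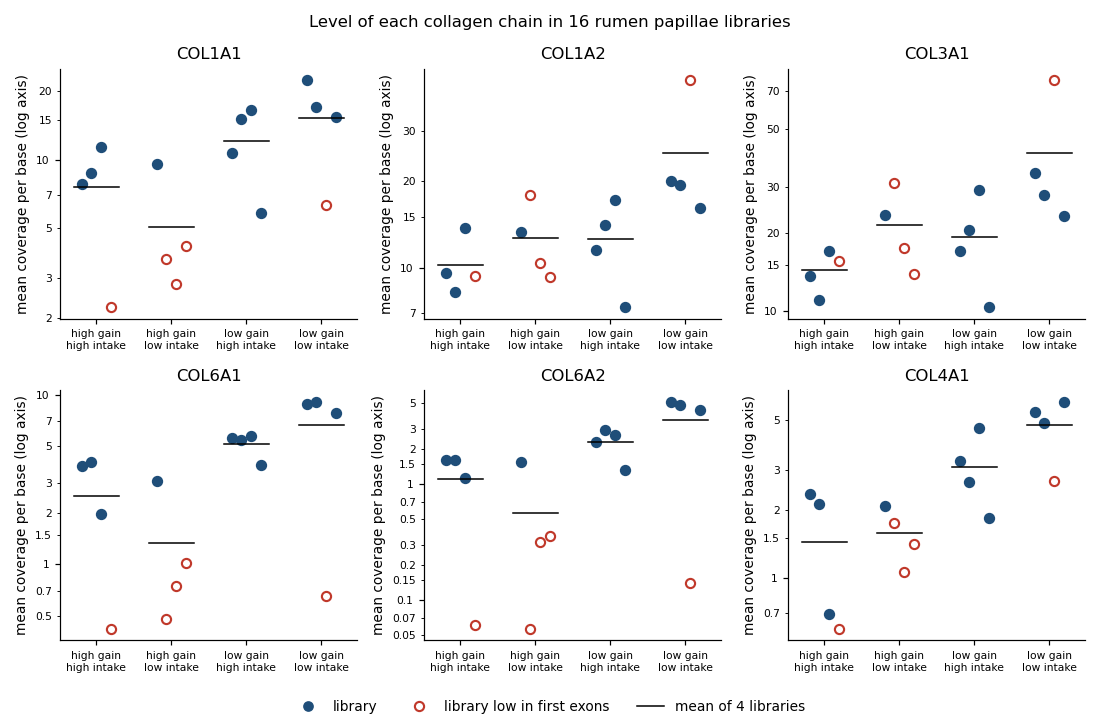
Level of each chain in the 16 libraries by group, as mean coverage per base on a log axis. Filled points are libraries, open red points the 5 libraries low in first exons, and bars the mean of 4 libraries. COL4A1 runs from 0.592 to 2.34 at high gain and from 1.83 to 6.01 at low gain, and the open points are the lowest 5 in COL6A1 and COL6A2.

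Animals of high gain were compared with animals of low gain over both intake levels. All 6 chains had lower estimates at high gain, and none passed the test. COL4A1 was furthest, with a log2 difference of -1.36 (SE 0.3, n = 8 and 8, limma adjusted p = 0.365), and 8 of 8 high-gain libraries lay below the low-gain median. It ranked 14 of 11061 genes by p. COL6A2 differed by -1.84 (SE 0.71, limma adjusted p = 0.667), COL6A1 by -1.69 (SE 0.57, limma adjusted p = 0.657) and COL1A1 by -1.19 (SE 0.38, limma adjusted p = 0.591), each with 8 of 8 libraries below that median. COL1A2 (-0.58, SE 0.24, limma adjusted p = 0.667) and COL3A1 (-0.58, SE 0.27, limma adjusted p = 0.712) had 7 of 8. No gene of 11061 passed a limma adjusted p of 0.05 for gain, which is 0.0% of genes tested, and limma called none when its trend and robust options were off. At an unadjusted p under 0.05, 784 genes (7.09%) were found, 6.67% of all genes with estimates below 0, and 5 of the 6 chains were among the latter. The median estimate was -1.28 over the 6 chains and -0.11 over all genes, of which 60.4% had estimates below 0.

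The call for gain turned on 1 library, and on the 5 low in first exons together. Without low gain with low intake replicate 3, 928 of 11061 genes were called (8.39%, and 8.33% lower at high gain). Among them COL4A1 fell by 1.48 at high gain on the log2 scale (limma adjusted p = 0.023), COL6A1 fell by 2.13 (limma adjusted p = 0.0244), COL6A2 fell by 2.38 (limma adjusted p = 0.0296) and COL1A1 fell by 1.38 (limma adjusted p = 0.0396). COL1A2 and COL3A1 remained uncalled there, at -0.42 and -0.4. Without all 5 libraries low in first exons, 117 genes (1.06%) were called, among them COL6A1, which fell by 1.06 (SE 0.21, limma adjusted p = 0.0378), and COL6A2, which fell by 1.07 (SE 0.22, limma adjusted p = 0.0396). In those 11 libraries COL4A1 differed by -1.12 (limma adjusted p = 0.16), COL1A1 by -0.6 (limma adjusted p = 0.401), COL1A2 by -0.34 and COL3A1 by -0.33. High gain with low intake keeps 1 library in that fit, which is assumed to vary like the other groups. Without the 5 libraries the estimates of COL1A1, COL6A1 and COL6A2 were nearer to 0 by more than their SEs over 16 libraries, and that of COL4A1 by less.

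**Figure D3:**
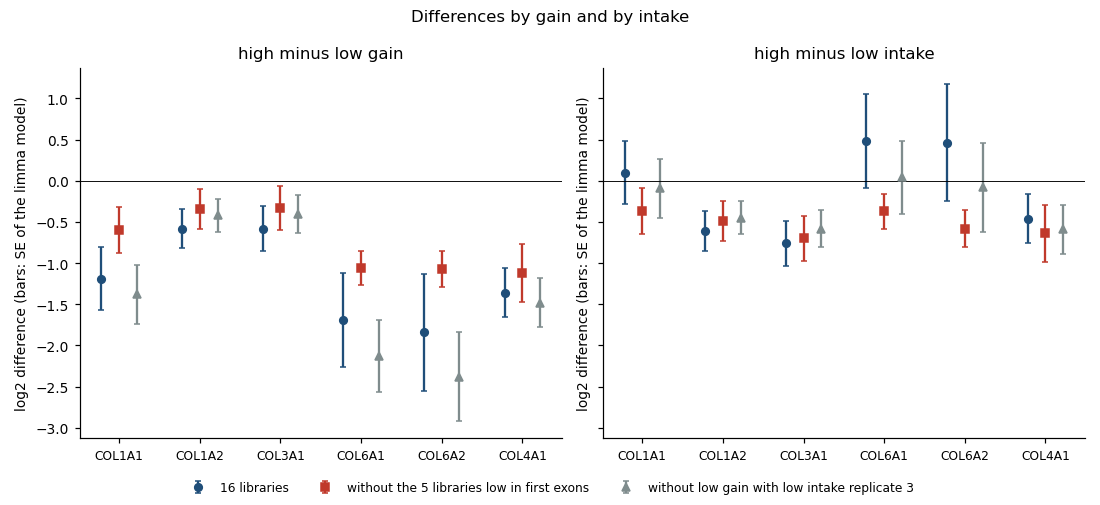
Log2 difference of each chain for high minus low gain (left) and high minus low intake (right), with bars of 1 SE from the limma model. Circles use 16 libraries, squares leave out the 5 libraries low in first exons and triangles leave out low gain with low intake replicate 3. Every gain estimate lies below 0, while the intake estimates of COL1A1, COL6A1 and COL6A2 cross 0 between the settings.

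Animals of high intake were compared with animals of low intake over both gain levels. COL3A1 differed by -0.76 (SE 0.27, limma adjusted p = 0.513) and COL1A2 by -0.61 (SE 0.24, limma adjusted p = 0.513), each with 7 of 8 high-intake libraries below the low-intake median. COL4A1 differed by -0.46, COL1A1 by 0.1, COL6A1 by 0.48 and COL6A2 by 0.46 (limma adjusted p = 0.513, 0.877, 0.62 and 0.696). No chain passed the test, and 2 of 11061 genes did (0.0181%), the kallikrein proteases KLK9 and KLK10, which are named because they were the only ones. Without the 5 libraries low in first exons, all 6 chains had lower estimates at high intake, from -0.37 for COL1A1 and COL6A1 to -0.7 for COL3A1. None of them was called (0.0271% of genes were), and 65.4% of all genes had estimates below 0 there. COL1A1, COL6A1 and COL6A2 thus have no direction for intake that holds for both sets of libraries.

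Whether the gain difference depended on intake was tested as an interaction. No chain passed (limma adjusted p = 1.0 for each), and 0 of 11061 genes did (0.0%), with 81 genes at an unadjusted p under 0.05 (0.732%). Estimates ran from 0.29 (SE 0.61) for COL4A1 to 0.88 (SE 1.42) for COL6A2, so their errors were larger than they were, except for COL1A1 (0.84, SE 0.76) and COL1A2 (0.65, SE 0.48). Any difference among the 4 groups was tested with an F statistic, which called 0 of 11061 genes (0.0%). The smallest p of a chain was 0.00285 for COL4A1 (limma adjusted p = 0.759), and 571 genes (5.16%) had an unadjusted p under 0.05. The other limma options called none in either test.

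Each exon row was then fitted on its own, over 71021 rows of all genes, of which 248 belong to the 6 chains. For gain, 246 of the 248 rows had estimates below 0, against 62.5% of all rows, with a median of -2.01 against -0.17. No row of the 71021 was called by limma (0.0%), and 124 of the 248 had an unadjusted p under 0.05, against 9.8% of all rows. Without the 5 libraries low in first exons 239 rows were below 0, against 62.4% of all rows, and the median was -1.05. With the first-exon index as a covariate 193 were below 0, against 53.6%, the median was -0.62, and 52 had an unadjusted p under 0.05, against 11.7%. Rows of 1 gene share their fragments and libraries and are not independent. The median row estimate was lowest in COL1A1 (-2.33) and COL6A2 (-2.23) and highest in COL3A1 (-1.53), where 49 of 49 rows were below 0. A weakly covered 5′ row counts here as much as the strongly covered last exon, whereas in a gene's level it adds little.

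Without the 5 libraries low in first exons, 17 of the 248 rows (6.85%) were called for gain, against 1.73% of all rows, all 17 lower at high gain. They were 6 rows of COL6A2, 4 of COL6A1, 4 of COL1A1 and 3 of COL4A1, with none in COL1A2 or COL3A1. The longest was exon 26 of COL6A2 (chromosome 1, 147565541 to 147565994, 454 bases). It stood at 4.34, 4.51 and 2.68 in the 3 remaining libraries of high gain with high intake and at 4.21 in the one left of high gain at low intake. Low-gain animals had 6.85, 7.55, 8.12 and 4.26 in this exon at high intake and 13.86, 12.41 and 11.56 at low intake. It fell by 1.17 on the log2 scale (SE 0.25, limma adjusted p = 0.0437), with low gain with high intake replicate 4 inside the high-gain range. Exon 15 of COL6A2, with 64 bases, had the smallest adjusted p among the rows of the chains (it fell by 3.54, limma adjusted p = 0.00792), and the only high gain with low intake library kept was at 0 there. Exon 32 of COL6A1 (188 bases), named because it was among those 17 rows, fell by 1.28 (SE 0.2). It stood at 2.56 to 4.04 at high gain and 4.33 to 10.87 at low gain, in the same libraries that picked it. The last exon of COL6A2, exon 28 with 1177 bases, had a mean of only 0.919 over 16 libraries, against 5.12 in exon 26. Its estimate in the 11 libraries was -0.03, whereas over 16 libraries all 23 tested rows of COL6A2 were at -0.67 or lower. Leaving out low gain with low intake replicate 3 alone gave 131 called rows of 248 (52.8%), all lower at high gain, against 10.6% of all rows, or 10.4% in that direction.

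For intake, 51 of the 248 rows had estimates below 0, against 46.4% of all rows, and none was called (0.0% of all rows), with 12 of the 248 at an unadjusted p under 0.05, against 6.2% of all rows. Without the 5 libraries 212 of 248 did, against 63.2% of all rows, again with none called. COL6A2 went from 0 of 23 rows below 0 to 20 of 23, and COL1A1 from 1 of 50 to 36 of 50. COL3A1, whose estimate for the whole gene was below 0 in both sets, went from 14 of 49 to 47 of 49.

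**Figure D4:**
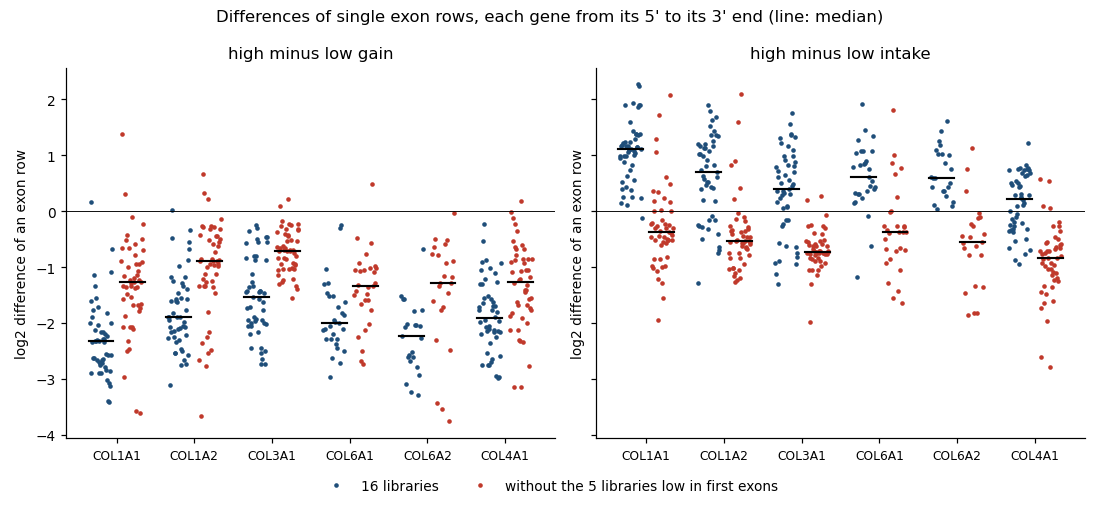
Log2 difference of single exon rows for gain (left) and intake (right), 1 point per row, placed from the 5′ to the 3′ end of each gene, with the median as a line. Blue uses 16 libraries and red leaves out the 5 libraries low in first exons. Almost all rows lie below 0 for gain in both, whereas for intake the medians change from above 0 to below 0 in all 6 genes.

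Types I and VI combine chains of several genes in 1 trimer, so ratios between chains were taken within each library, after adding 0.1 to each level. COL1A1 stood at 0.716 to 1.12 of COL1A2 in the 11 libraries and at 0.142 to 0.451 in the 5 libraries low in first exons, with no overlap. COL3A1 over COL1A2 was far steadier, at 1.23 to 1.74 in all 16 libraries and 1.48 to 1.74 in the 5. COL6A1 over COL6A2 was 1.68 to 2.77 in the 11 libraries. In the 5 libraries it was 2.04 to 3.68, and there COL6A2 stood at 0.0565 to 0.355, so that the added 0.1 weighs heavily in these values. COL4A1 over the sum of COL1A1, COL1A2 and COL3A1 ranged from 0.0186 in high gain with high intake replicate 3 to 0.111 in low gain with low intake replicate 4. Of 8 tests on log2 ratios (4 ratios, gain and intake), none passed in exact permutation tests, two-sided, adjusted by Benjamini-Hochberg. The smallest p was that of COL3A1 over COL1A2 for intake, with a difference of -0.15 (exact p = 0.0395, adjusted p = 0.316). COL4A1 over the fibrillar sum differed by -0.65 for gain (exact p = 0.0973, adjusted p = 0.389), and COL1A1 over COL1A2 by -0.62 (exact p = 0.212, adjusted p = 0.424), which became -0.17 without the 5 libraries. Coverage of the 5′ over the 3′ portion of each gene, split at the midpoint of its exon length, gave 12 further tests, none of which passed (smallest adjusted p = 0.461, exact permutation tests). There too 0.1 was added to both portions, which limits how low the value can go where coverage is weak, as in COL6A1 and COL6A2.

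**Figure D5:**
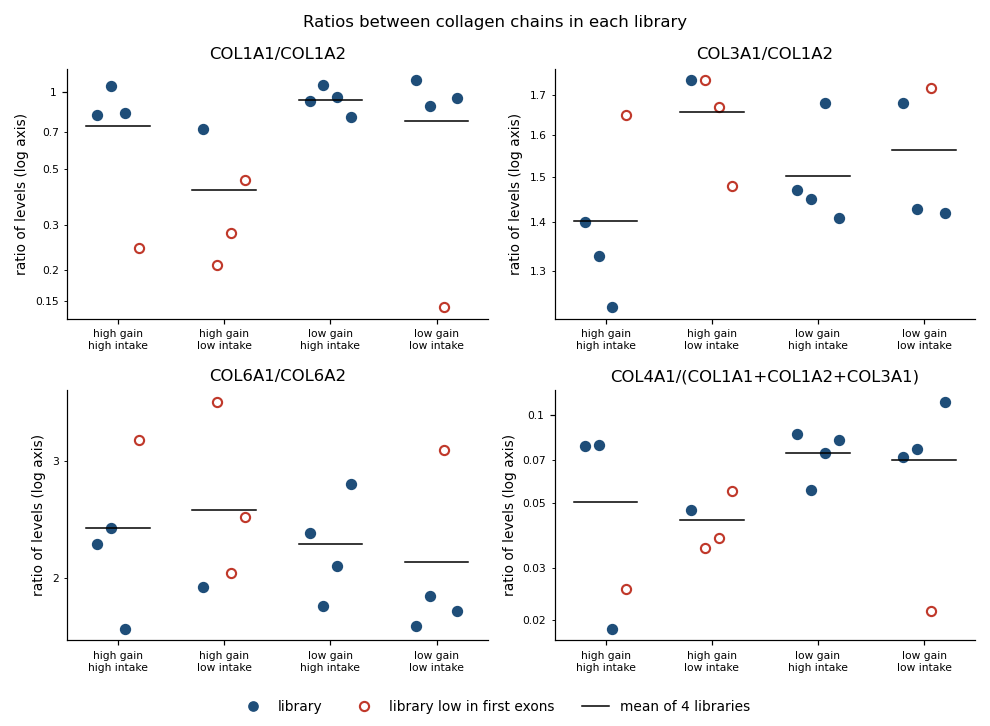
Ratios of levels in each of 16 libraries by group, on log axes, after adding 0.1 to each level. Open red points are the 5 libraries low in first exons and bars the mean of 4 libraries. COL1A1 over COL1A2 separates the open points (0.142 to 0.451) from the filled ones (0.716 to 1.12), while COL3A1 over COL1A2 stays between 1.23 and 1.74.

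Genes outside the 6 chains were ranked by how closely their levels followed the mean standardised level of the chains over the 16 libraries. PCOLCE, which enhances removal of the procollagen C-propeptide, was first of 11055 genes with a Spearman rho of 0.96, followed by FBLN1 (fibulin-1, a matrix glycoprotein) and PEPD (prolidase, which splits proline dipeptides from collagen breakdown), both at 0.94. PRELP, a collagen-binding proteoglycan, and TMEM184B followed at 0.89, GNL1 and ITM2C at 0.88 and PEAR1 at 0.87. In the 11 libraries the rho of GNL1 was 0.96, of PCOLCE and ITM2C 0.95, of PEAR1 0.93 and of PEPD 0.92. It was 0.9 for FBLN1, 0.86 for TMEM184B and 0.85 for PRELP. Of deviations from group means, the highest Pearson r was that of TRIO at 0.91, with C1QB, DAZAP1, PCOLCE, FBLN1, MT1A and MGC126945 at 0.89 and C1QTNF6 at 0.88. In the 11 libraries the Spearman rho of MT1A with the chains was -0.06, that of MGC126945 -0.08, that of DAZAP1 0.34 and that of TRIO 0.44. That of C1QTNF6 was 0.62 and that of C1QB 0.78. These values describe 16 libraries that also differ in 5′ coverage, and no test was made of them.

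Other genes of collagen production were followed by list, and no list member passed the test for gain or intake in 16 libraries. Over all genes, 60.4% of estimates were below 0 for gain and 49.1% for intake. Of 12 other collagens tested, 9 had lower estimates at high gain (median -0.38, against -0.11 over all genes), led by COL18A1, the collagen of vessel and epithelial basement membranes (-2.03, SE 0.71, limma adjusted p = 0.664). COL17A1, the transmembrane collagen of hemidesmosomes, differed by -1.04 and COL5A3 by -0.63. COL18A1 was called in the 11 libraries, where it fell by 1.48 (limma adjusted p = 0.0334). For intake the collagens with the smallest p were COL8A1 (-1.05), COL15A1 (-0.68) and COL27A1 (0.8), and 7 of 12 estimates were below 0.

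Of 22 genes that fold, modify and export procollagen, 15 had lower estimates at high gain and 11 at high intake. The shares over all genes were 60.4% and 49.1%. CREB3L1, a transcription factor of secretory cells, differed by -0.87 for gain, the lysyl hydroxylase PLOD3 by -1.27 and the collagen chaperone SERPINH1 by -0.79. For intake, FKBP7 (-0.89) and FKBP14 (-0.72), prolyl isomerases of the endoplasmic reticulum, had the smallest p of that list. P4HB, a subunit of prolyl hydroxylase and a general disulfide isomerase, was next, with a difference of 1.03. Its level was 72.0 ± 21.2 at high and 42.3 ± 26.6 at low intake (SD, n = 8), and its estimate was 0.43 in the 11 libraries. Among 10 genes that trim and cross-link collagen outside cells, 8 were lower at high gain in estimate, and 6 had an unadjusted p under 0.05, against 60.4% and 7.09% of all genes. The amine oxidase LOXL1 differed by -1.69 (SE 0.48, limma adjusted p = 0.482), PCOLCE by -1.01 and the N-propeptidase ADAMTS2 by -0.76. For intake the cross-linking oxidases LOX (-1.02) and LOXL2 (-0.57) had the smallest p of that list.

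Proteins that bind fibrils had 16 of 17 lower estimates at high gain (median -0.57) and 14 of 17 at high intake (median -0.62, against 0.01 over all genes). FBLN1 had the smallest p of all genes tested for gain. It stood at 5.64 ± 1.59 at high and 12.4 ± 2.78 at low gain (SD, n = 8), a log2 difference of -1.15 (SE 0.19, limma adjusted p = 0.265), with 8 of 8 high-gain libraries below the low-gain median. In the 11 libraries FBLN1 differed by -0.82 and the elastin gene ELN by -1.28, and 14 of the 17 estimates were lower at high gain. In the 16 libraries ELN differed by -1.79 for gain, TNC, the matrix glycoprotein tenascin-C, by -1.3 and PRELP by -0.91. For intake, fibronectin FN1 differed by -0.95 (SE 0.23, limma adjusted p = 0.401) and SPARC by -0.68 (limma adjusted p = 0.401), and thrombospondin THBS1 by -1.15. All 7 other basement membrane genes tested had lower estimates at high gain (median -0.61), among them LAMA4 (-0.52), NID1 (-0.61) and LAMB3 (-1.27), and 5 of 7 at high intake, with NID2 at -1.09.

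Among 10 collagen receptors 8 had lower estimates at high gain and 5 at high intake, against 60.4% and 49.1% of all genes. The receptor kinase DDR2 differed by -0.45 for gain, and ANTXR1, a receptor that binds collagen, by -0.67 for intake. Of 16 genes that break collagen down or inhibit its breakdown, 13 were lower at high gain in estimate, against 60.4% of all genes. They included PEPD (-0.91), the inhibitor TIMP3 (-1.03) and the gelatinase MMP2 (-1.01).

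No marker of the cell types that papillae hold passed the test for gain or intake in the 16 libraries. All 12 fibroblast markers had lower estimates at high gain (median -0.55, against -0.11 over all genes), with VIM at -0.64 and PDGFRB at -0.95, and their summed level ran from 99.2 to 275 at high gain and from 183 to 381 at low gain. S100A4, which other cells also express, made most of that sum. PDPN was at 0 in 2 libraries, and DCN (6.63 to 35.9) and LUM (8.04 to 86.5) were covered in all. The 10 endothelial markers (10 lower at high gain, sum 6.91 to 16.7 against 14 to 22.6), the 10 smooth muscle markers (10 lower, 5.57 to 32.3 against 17.4 to 68.6) and the 4 pericyte markers (4 lower, 4.36 to 13.3 against 8.42 to 31.3) had the same sign, and CLDN5, LMOD1 and DES were at 0 in 1 or 2 libraries. In the 11 libraries, 10 of 12 fibroblast markers were lower at high gain (median -0.35, against -0.07 over all genes). So were 8 of 10 endothelial, 10 of 10 smooth muscle, 4 of 4 pericyte and 3 of 10 leukocyte markers. Over all genes the share was 59.2%. CLDN5 differed there by -1.74, LMOD1 by -1.53 and RGS5 by -0.69. For intake RGS5 differed by -1.06 there, and 4 of 4 pericyte markers were lower, against 65.4% of all genes. Keratinocyte markers were divided over the 16 libraries, with 7 of 13 lower at high gain, against 60.4% of all genes. Their sum ran from 1010 to 2560 at high gain and from 664 to 3200 at low gain. In the 5 libraries low in first exons that sum was 664 to 1420, against 1720 to 3200 in the other 11. It rests largely on KRT6A, KRT17 and KRT14, with medians of 603, 480 and 256, against 1950 for the sum. KRT17 and KRT14 were as low as 4.1 and 4.06. Leukocyte markers had 6 of 10 lower estimates and sums of 12.2 to 48.7 against 19.8 to 36.4, with CD79A at 0 in 9 libraries. SOX10, a Schwann cell marker, was at 0 in 15 libraries. The part of these cell types, and of the uneven coverage, in the collagen differences was not tested.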

How the data were processed

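Polyadenylated RNA of 16 libraries was sequenced from 1 end for 50 bases. The genome build was UMD3.1 and the aligner TopHat2 2.08b, per the submitters' processing notes. Which annotation and coverage tool were used is not given in the sources used here. What the authors deposited is 1 table of 2351373 regions, whose signal values, as read from the values, are mean coverage per base times 1 factor per library. Its deposited log2, fold ratio and p-value columns were not used. Coverage holds no counts, so no counting intervals are given.

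A gene's level was the length-weighted mean over its exon rows. Levels, as log2(level + 0.1), were fitted with limma 3.58.1 (trend, robust) in R 4.3.3 on 4 group means. Genes at 0.1 or more in at least 4 libraries were tested, and exon rows at 0.5 or more. P-values are two-sided, adjusted by Benjamini-Hochberg over all genes or rows, with a threshold of 0.05. Ratios and 5′ over 3′ coverage were compared by exact permutation tests. Scripts were tested on simulated data. The members and lists were chosen with earlier results of these data known. Named genes are the chains, up to 3 genes per list and contrast with the smallest p, and the 8 most alike by each measure. Libraries low in first exons were left out as an alternative.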

Additional observations from a re-analysis of the deposited data

Results flagged for a closer look

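Levels, ratios and 5′ over 3′ log2 values of the chains were looked at in 64 groups of 4 libraries for a library far from the other 3, by Dixon's criterion. In ratios and 5′ over 3′ values 0.1 was added to both terms. It picked 15 groups, and chance picks about 1 group in 20. Low gain with low intake replicate 3, which had the lowest first-exon index (-2.462), accounts for most of them. Its COL1A2 level of 45 stood above 16.2 to 20.1 in its group, while COL6A1 at 0.651 and COL6A2 at 0.141 stood below 7.83 to 9.08 and 4.32 to 5.14. Its log2 ratio of COL1A1 to COL1A2 was -2.81, against -0.18 to 0.16, and that of COL6A1 to COL6A2 was 1.64, against 0.76 to 0.91. The log2 ratio of its 5′ to its 3′ coverage was -6.7 in COL1A1, -8.86 in COL1A2, -6.05 in COL3A1, -3.57 in COL6A1, -1.63 in COL6A2 and -5.34 in COL4A1, each the lowest of its group. Where 5′ coverage is near 0, as in this library's COL6A1 (0.0157) and COL6A2 (0.0184), the added 0.1 limits how low the value can go.

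Low gain with high intake replicate 4 had a COL6A1 level of 3.84, against 5.39 to 5.7 in its group, and a 5′ over 3′ value of -3.39 in COL6A1, although its first-exon index was not low. High gain with high intake replicate 3 had the highest 5′ over 3′ value of its group in COL6A1, at -2.17. High gain with high intake replicate 4, one of the 5 libraries low in first exons, had a value of -1.16 in COL6A2, against -0.58 to -0.47. Its 5′ portion of COL6A2 was at 0, so that value is set by the added 0.1.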

How the results depend on the processing

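No paired analysis was possible because nothing in the labels links an animal of one group to an animal of another. The alternatives were a pseudocount of 0.5, no filter, the best covered row or the 3′ portion in place of all exon rows, median-ratio scaling, limma without trend and robust options, the first-exon index as a covariate, the 11 libraries alone, and each library left out in turn. For the 6 chains the gain estimates stayed below 0 under all of them. Without the 5 libraries low in first exons, 117 genes and 2 chains were called for gain, 1232 exon rows with 17 of the chains, and 2 genes for any of 4 groups. With the index as a covariate, 13 genes were called for gain, 4 for intake and 36 for any of 4 groups, and no chain. In that fit the median gain estimate of the chains was -0.73, against -1.28 without the covariate. At an unadjusted limma p under 0.05 it had 6 of 6 chains for gain, against 15.2% of genes, and 4 of 6 for intake, against 9.44%. For intake, 1 gene was called with a pseudocount of 0.5 and 0 with the best covered row; the 3′ portion gave 1 for any of 4 groups. Intake estimates reversed without the 5 libraries and with the covariate: COL1A1 -0.37 and -0.28, COL6A1 -0.37 and -0.21, COL6A2 -0.58 and -0.41. The COL3A1 interaction became -0.14 without the 5. COL6A1 over COL6A2 for gain became -0.11 (pseudocount 0.5) and -0.06 (3′ portion), and for intake -0.32 (best row). COL4A1 over the fibrillar sum for intake became -0.06 (best row) and -0.25 (without the 5). The 5′ over 3′ differences for intake became -0.32 in COL1A1, -0.30 in COL1A2, -0.27 in COL3A1, -0.10 in COL6A1, -0.24 in COL6A2 and -0.32 in COL4A1 without the 5. In COL6A1 that difference for gain was 0.36 (pseudocount 0.5) and 0.07 (outer portions only), and for intake -0.16 (pseudocount 0.5). The causes were not tested.

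With 1 library left out, genes called for gain ran from 0 to 928 and chains from 0 to 4, both highest without low gain with low intake replicate 3, the only library whose omission called any gene for gain. Genes called for intake ran from 0 to 2 and for any of 4 groups from 0 to 19. Exon rows called ran from 0 to 7542 for gain, with 0 to 131 of the chains, and from 0 to 3 for intake. Ranges that include both signs were -0.09 to 0.35 for COL1A1 and -0.08 to 0.87 for COL6A2 by intake, -0.0 to 0.60 for the COL4A1 interaction, -0.04 to 0.04 for COL3A1 over COL1A2 by gain, and, by intake, -0.05 to 0.12 for COL6A1 over COL6A2 and -0.07 to 0.33 for COL4A1 over the fibrillar sum. COL6A2 rests on few reads in some libraries, with about 6 estimated in high gain with high intake replicate 4. That library held 15.06 M estimated reads in all, and the shallowest, low gain with high intake replicate 1, held 11.85 M.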
